A study of Schizosaccharomyces pombe
Saccharomyces cerevisiae with 8 samples.

Results

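The genes described here encode mitochondrial inner membrane proteins in the nucleus of the budding yeast Saccharomyces cerevisiae. A gene was a member when the deposited annotation gave it the cellular component term for that membrane, it did not lie on the mitochondrial chromosome, and its biological process terms did not hold mitochondrial translation. Among features listed for total RNA, 168 held the term, 3 of them lay on the mitochondrial chromosome and 3 were left out for their translation term, which left 162 genes of 6518 features. The table of newly synthesized RNA, of which only part was held, listed 90 of the 162 genes among its 2822 features. The deposited descriptions of 98 members name the inner membrane, and 3 members open instead with an outer membrane or peroxisomal protein, so the term is wider than residents of that membrane. The tables paired 63 members with a gene name, 10 more were named through their descriptions or those of a paralog, and the other 89 are given by identifier with their deposited description.

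The inner membrane holds the respiratory chain, which passes electrons from dehydrogenases through complexes III and IV to oxygen and pumps protons outward, and the ATP synthase, which uses the proton gradient to make ATP. Budding yeast has no proton-pumping complex I and uses single-subunit NADH dehydrogenases in its place. A family of carriers exchanges metabolites, nucleotides and phosphate across the membrane, and TIM complexes insert or pull in proteins made in the cytosol. Complexes III and IV and the ATP synthase are mosaics, since a few core subunits are encoded by the mitochondrial genome and all others by nuclear genes transcribed by RNA polymerase II, the enzyme that the Mediator coactivator serves.

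The cells were a strain of mating type alpha, labelled OsTIR1 MED14-IAA7 MED17-IAA7. The plant auxin receptor OsTIR1 was driven by the GPD1 promoter, and the Mediator subunits Med14 and Med17 both carried an IAA7 degron, so that auxin can target both proteins for breakdown. Auxin cells received 500 µM 3-indole acetic acid and DMSO cells the carrier alone, for 30 min. DMSO cells therefore carried the receptor and both degrons too, and no strain without a degron was analysed here. All cultures then took up 5 mM 4-thiouracil for 6 min, and 1 part of the cells was joined by 3 parts of the fission yeast Schizosaccharomyces pombe ahead of RNA extraction. Libraries were made from total RNA and from the labelled RNA purified out of it, which holds newly synthesized RNA. Each fraction had 2 auxin and 2 DMSO samples, biological replicates by the series design, which gave 8 libraries in 4 groups. The question of the comparison is how far RNA of these genes depends on Mediator. The RNA counts do not show how much Med14 or Med17 protein was left.

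Counts of the total RNA table summed to 10862028 and 13970025 in auxin, against 17491251 and 13004246 in DMSO. The listed part of newly synthesized RNA summed to 4817883 and 5882137 in auxin, against 13125438 and 15744423 in DMSO. Values below are counts divided by the authors' size factor of each library, and fold changes are log2 of auxin over DMSO from edgeR's quasi-likelihood fit with those factors. A gene was called at a Benjamini-Hochberg adjusted p below 0.05 over all features tested. TMM scaling, which takes most genes as not changed, raised the median log2 fold change of all features by 1.72 in total RNA and by 2.79 in newly synthesized RNA. Every fall below is therefore a fall on the authors' scale, and where TMM turned the direction of a gene its TMM value stands beside it. The origin of the authors' size factors is not known here. On the authors' scale, whatever it rests on, fewer S. cerevisiae cells in the mix and less RNA per cell cannot be told apart.

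Nearly all inner membrane genes fell in total RNA. Of the 160 with a mean of at least 10 counts, 157 were called lower by edgeR, where 92.3% of all features tested were called lower. None (0) was called higher, against 0.769% of all features, with 0 at an unadjusted p below 0.05 and 0 by DESeq2. Both auxin libraries lay below both DMSO libraries for 159 of the 160, and did so for 94.6% of all features. The share of members called was thus near that of all features, and the members differed from each other mainly in how far they fell. Their median log2 fold change was -2.05, with quartiles of -2.47 and -1.68, beside -1.85 over all features tested. By library, the median member stood at 21.4% and 26.9% of its DMSO mean in auxin, where the median feature stood at 25.6% and 29.9%. With TMM scaling 76 members were lower and 22 higher, beside 34.8% and 28.5% of all features, and the member median was -0.33, beside -0.13 over all features.

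The summed normalized counts of the members came to 33.9% of the DMSO sum in auxin. Members made up 0.614% and 0.633% of all normalized counts in auxin libraries, against 1.23% and 1.17% in DMSO libraries, a share that does not depend on the scaling between libraries. It does depend on the most abundant other features. The summed counts of all tested features stood at 61.0% and 69.3% of the mean DMSO sum in auxin, where the median feature stood at 25.6% and 29.9%. HSP60, the mitochondrial chaperonin, alone held 24.5% of the summed member counts in auxin and 18.4% in DMSO. Without it the sum in auxin was 31.4% of that in DMSO.

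The 3 members not called in total RNA are named here because they were not called. YOR297C, a component of the TIM22 insertion complex, had 159 and 199.7 normalized counts in auxin, against 189 and 209 in DMSO, and its groups overlapped. Its log2 fold change was -0.14 (SE 0.215, edgeR adjusted p = 0.514), it came to 1.57 with TMM scaling, and it was 0.01 without auxin replicate 1. YEL059C-A, a subunit of the inner membrane peptidase, had 10.5 and 10.9 in auxin, against 12.8 and 23.4 in DMSO, and YAR035W, a carnitine acetyltransferase placed in the outer membrane by its description, had 20.0 and 17.6 in auxin, against 25.6 and 34.3 in DMSO. Both were low in counts and stood at -0.69 and -0.65 (edgeR adjusted p = 0.153 and 0.0958). With TMM scaling YEL059C-A came to 1.02 (edgeR adjusted p = 0.0695) and YAR035W to 1.07 (edgeR adjusted p = 0.0214), and YAR035W was then called higher. SFC1, the succinate-fumarate carrier, and YDR119W-A, a factor of respiratory supercomplexes, had too few counts to be tested.

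**Figure D1:**
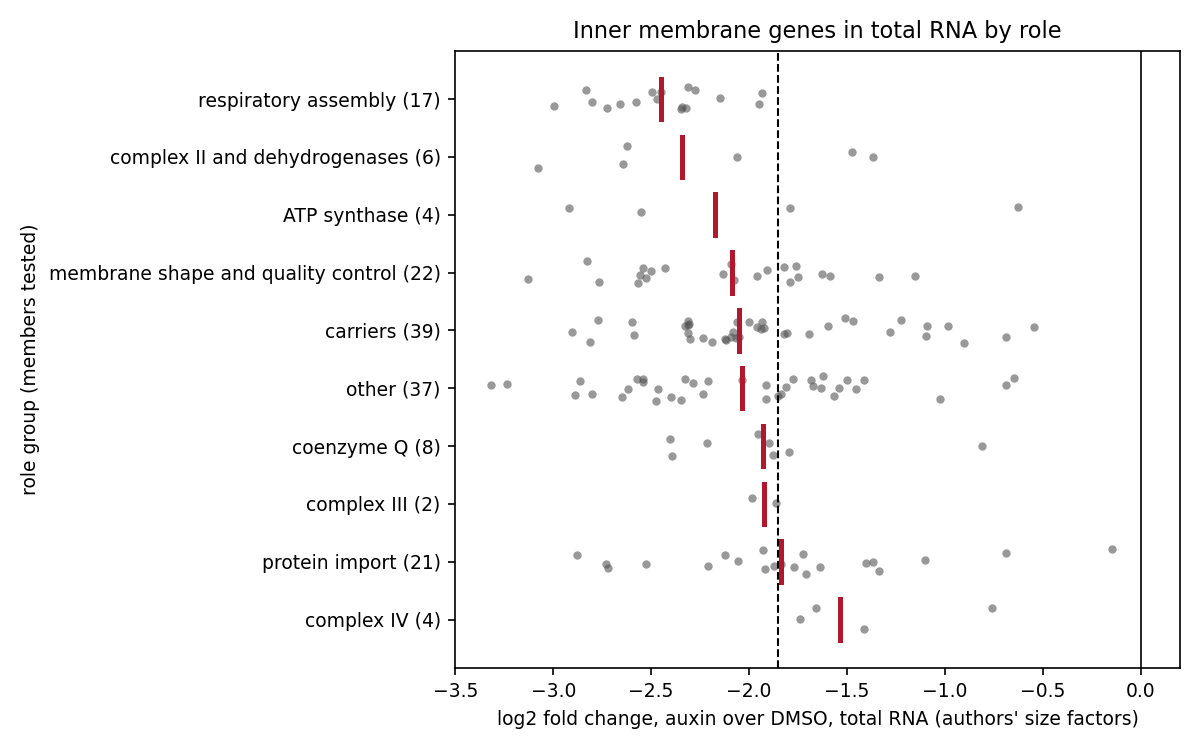
Log2 fold change of auxin over DMSO in total RNA (x axis, authors' size factors) for the 160 tested inner membrane genes, in rows by role with the number tested. Each grey point is 1 gene, red bars are role medians, from -2.45 for respiratory assembly to -1.54 for complex IV, and the dashed line at -1.85 is the median of all features tested; with TMM scaling the complex IV median was 0.19.

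The dehydrogenases that feed electrons into the chain ranged from deep to shallow falls. All 6 of this group fell, with a median of -2.34, and with TMM scaling 3 were lower and 1 higher. YML120C, the NADH:ubiquinone oxidoreductase of the matrix side, had 137 and 168 normalized counts in auxin, against 923 and 986 in DMSO, a change of -2.64 (SE 0.205, edgeR adjusted p = 2.27e-36). YDL174C, the D-lactate dehydrogenase, had 113 and 156 in auxin, against 847 and 819 in DMSO, a change of -2.62 (SE 0.206, edgeR adjusted p = 2.21e-35). Both stood at close to the same share of their DMSO level, 16.0% and 16.2%. YIL155C, the glycerol-3-phosphate dehydrogenase, fell less, with 172 and 201 in auxin, against 458 and 507 in DMSO (-1.37, and 0.35 with TMM scaling).

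Complex II, the succinate dehydrogenase, was represented by the membrane anchor gene SDH4 and by SHH4, a putative alternate anchor of lower level. SDH4 had 39.9 and 47.8 normalized counts in auxin, against 131 and 113 in DMSO, a change of -1.47 (SE 0.268, edgeR adjusted p = 5.20e-08), which was 0.24 with TMM scaling. SHH4 had 5.70 and 9.23 in auxin, against 64.9 and 64.6 in DMSO, a change of -3.08 (SE 0.394, edgeR adjusted p = 1.02e-14). Both auxin libraries lay below both DMSO libraries for each gene, and the fall of SHH4 rests on fewer than 10 normalized counts per auxin library.

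Complex III passes electrons from ubiquinol to cytochrome c. Its only 2 members under the rule were QCR9 and CYT1, which are named for that reason although their counts were below the limit for named genes. QCR9, a small subunit, had 24.7 and 35.2 normalized counts in auxin, against 107 and 135 in DMSO, a change of -1.99 (SE 0.284, edgeR adjusted p = 4.76e-12). CYT1, cytochrome c1, had 27.6 and 42.8 in auxin, against 138 and 119 in DMSO, a change of -1.86 (SE 0.274, edgeR adjusted p = 1.77e-11). Both fell close to the median of all features, and with TMM scaling 0 were lower and 0 higher. CYC1, the soluble cytochrome c that takes up their electrons and no member, fell to 144 and 167 in auxin, against 806 and 988 in DMSO (-2.52).

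Complex IV, the cytochrome c oxidase, had the shallowest fall among the role groups of total RNA. Its 4 tested subunits all fell, with a median of -1.54, and with TMM scaling that median turned to 0.19, with 0 lower and 2 higher. YGL187C, subunit IV, had 321 and 446 normalized counts in auxin, against 1088 and 1479 in DMSO (-1.74). COX5A, subunit Va, the form used in air, had 223 and 291 in auxin, against 729 and 902 in DMSO, a change of -1.66 that was 0.07 with TMM scaling. YHR051W, subunit VI, had 507 and 676 in auxin, against 1389 and 1773 in DMSO, a change of -1.41 that was 0.31 with TMM scaling. YGL191W, subunit VIa, which is not essential for oxidase activity, fell least, with 612 and 831 in auxin, against 1130.2 and 1320.0 in DMSO, a change of -0.76 (SE 0.187, edgeR adjusted p = 5.64e-05) that was 0.96 with TMM scaling. Auxin replicate 1 was the lower auxin library for all 4 subunits, and no auxin library reached a DMSO library.

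For the ATP synthase the rule took in 1 structural subunit and 3 factors for its expression or assembly, and their changes ran from -2.92 to -0.62. YJR121W, the beta subunit of the catalytic F1 sector, had 4495 and 6466 normalized counts in auxin, against 7848 and 9046 in DMSO. Its change of -0.62 (SE 0.199, edgeR adjusted p = 0.00200) turned to 1.09 with TMM scaling. The call was lost without auxin replicate 1 (-0.39, edgeR adjusted p = 0.130) and without DMSO replicate 2 (-0.52, edgeR adjusted p = 0.100). YLR393W, an assembly factor of the F0 sector, had 35.2 and 32.7 in auxin, against 283 and 228 in DMSO, a change of -2.92 (SE 0.259, edgeR adjusted p = 1.97e-28). ATP25, needed for the stability of the mitochondrial OLI1 message, had 199.6 and 232 in auxin, against 1179 and 1358 in DMSO (-2.55), and ATP22, a translational activator of the mitochondrial ATP6 message, had 260.4 and 267 in auxin, against 922 and 905 in DMSO (-1.79). The beta subunit thus kept 64.9% of its DMSO level, where the 3 factors kept 13.2% to 28.9%.

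**Figure D2:**
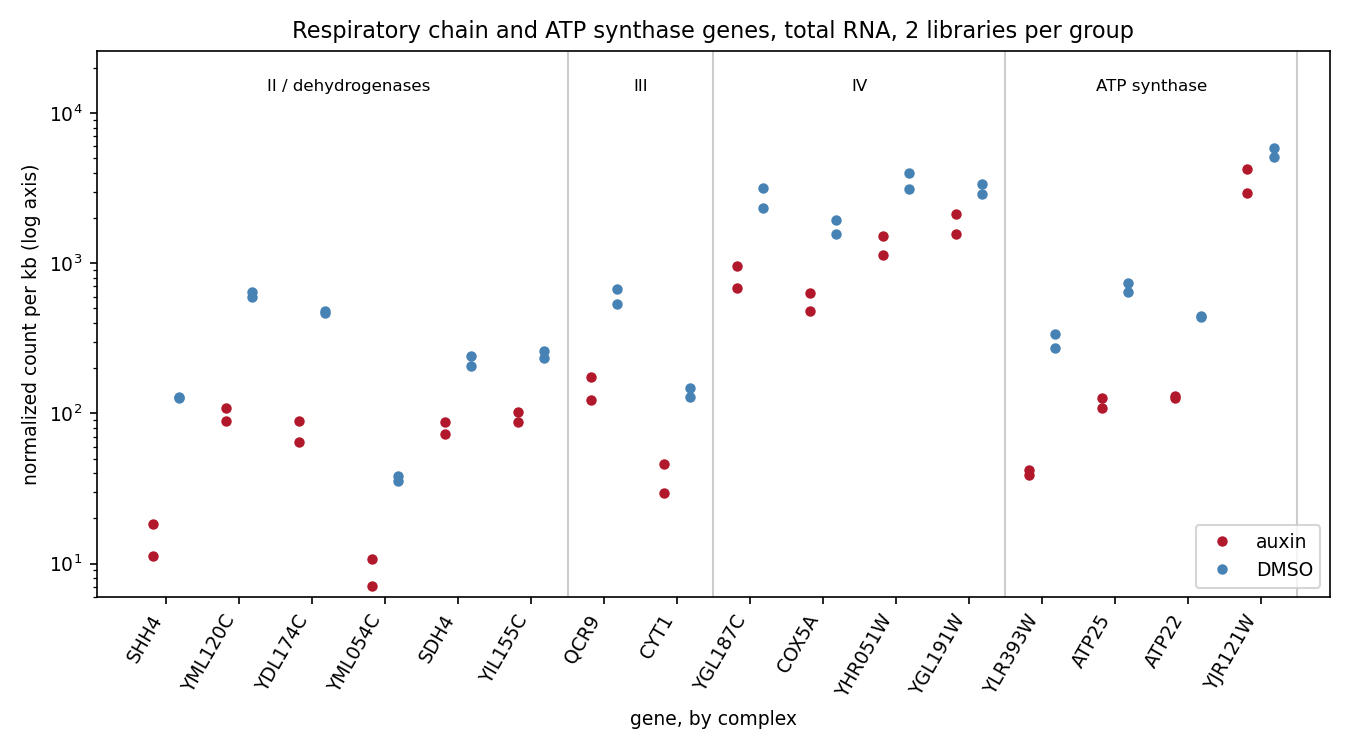
Normalized counts per kb of coding length in total RNA (y axis, log scale) for the tested members of the respiratory chain and ATP synthase, ordered by fold change within each complex. Each point is 1 library, with 2 auxin libraries in red left of 2 DMSO libraries in blue; the groups do not overlap for any gene shown, and the gap is widest for SHH4 (-3.08) and narrowest for YJR121W (-0.62, or 1.09 with TMM scaling).

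Assembly factors of the respiratory chain had the deepest median among the role groups. All 17 were called lower, with a median of -2.45 and a range of -2.99 to -1.93, and the median assembly gene stood at 16.5% and 19.8% of its DMSO mean in the auxin libraries. With TMM scaling 15 of the 17 were still lower and 0 higher, where 34.8% and 28.5% of all features were. COX11, which delivers copper to the oxidase, had 77.9 and 60.4 normalized counts in auxin, against 509 and 593 in DMSO, a change of -2.99 (SE 0.223, edgeR adjusted p = 3.79e-39). YGR112W, a factor for complex IV assembly similar to human SURF1, had 72.2 and 70.5 in auxin, against 523 and 494 in DMSO, a change of -2.83 (SE 0.222, edgeR adjusted p = 1.36e-35). The smallest falls of the group were those of YER141W, needed to make heme A, with 1269.8 and 1518 in auxin, against 5049 and 5711 in DMSO (-1.95), and of COA3, which also takes part in regulating Cox1 translation, with 58.0 and 73.0 in auxin, against 229.5 and 275 in DMSO (-1.93). Each of the 17 thus had a larger fall than each of the 4 complex IV subunits. All 17 also lay below the median of features with a similar DMSO level per kb, with a median difference of -0.50 in log2 fold change, where the median difference of the 4 complex IV subunits was -0.04. That median difference was lower still for membrane shape and quality control, at -0.59, with 16 of 22 genes below. It was -0.02 for coenzyme Q genes and 0.15 for the 2 complex III genes. The difference between assembly factors and complex IV subunits was not tested.

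Coenzyme Q carries electrons between the dehydrogenases and complex III, and all 8 genes for its synthesis fell, with a median of -1.93. YOL096C, an O-methyltransferase of the pathway, had 84.6 and 91.5 normalized counts in auxin, against 434 and 501 in DMSO, a change of -2.40 (SE 0.217, edgeR adjusted p = 1.73e-27). YNR041C, the polyprenyl transferase, had 157 and 172 in auxin, against 758 and 977 in DMSO, a change of -2.39, in a feature that overlaps another. YDR204W, a stabilizing factor of the synthesis complex, fell by 1.80, with 233 and 289 in auxin, against 906 and 909 in DMSO. COQ5, a methyltransferase of the same complex, fell least of the 8, with 2201 and 2504 in auxin, against 4028 and 4213 in DMSO. Its change was -0.81 (SE 0.195, edgeR adjusted p = 4.26e-05), or 0.92 with TMM scaling. With TMM scaling 2 of the 8 were lower and 1 higher.

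Carriers and transporters formed the largest group. All 39 tested genes fell, with a median of -2.05 and a range of -2.90 to -0.54, and with TMM scaling 17 were lower and 7 higher. The deepest falls were of AAC1, a minor ADP/ATP carrier, with 16.2 and 17.6 normalized counts in auxin, against 127 and 128 in DMSO, a change of -2.90 (SE 0.310, edgeR adjusted p = 2.23e-20), and of YHR002W, a carrier for coenzyme A accumulation, with 30.4 and 29.4 in auxin, against 207 and 214 in DMSO, a change of -2.81. YDL119C, a glycine carrier for heme synthesis, and MRS3, an iron carrier, were among the deeper falls at -2.77 and -2.59.

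The shallowest falls among carriers were of YMR241W and YMC1. YMR241W, which exchanges citrate for oxoglutarate, had 2549 and 2828 normalized counts in auxin, against 3585 and 4251 in DMSO, a change of -0.54 (SE 0.195, edgeR adjusted p = 0.00599) that was 1.19 with TMM scaling. Its call was lost without DMSO replicate 2 (-0.42, edgeR adjusted p = 0.197). YMC1, a secondary glycine carrier in a feature that overlaps another, had 336 and 446 in auxin, against 593 and 668 in DMSO, a change of -0.69 (SE 0.191, edgeR adjusted p = 3.72e-04) that was 1.03 with TMM scaling. YOR100C, the carnitine carrier, is named because it was the member most moved by 1 library, with 4.75 and 18.5 in auxin, against 21.9 and 26.1 in DMSO, a change of -0.98 (edgeR adjusted p = 0.0243) that was 0.71 with TMM scaling, and came to -0.36 without auxin replicate 1 (adjusted p = 0.423) and to -2.29 without auxin replicate 2. Its call was also lost with DESeq2 (adjusted p = 0.196), with the replicate block in edgeR (adjusted p = 0.0676), and in edgeR without DMSO replicate 1 (adjusted p = 0.0605) or DMSO replicate 2 (adjusted p = 0.130).

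Besides AAC1, the carriers for ADP, ATP and phosphate named here had falls smaller than that of the median carrier. PET9, the major ADP/ATP carrier, had 203 and 362 normalized counts in auxin, against 775 and 545 in DMSO, a change of -1.23 (SE 0.194, edgeR adjusted p = 3.59e-10) that was 0.47 with TMM scaling. MIR1, the main phosphate carrier, had 181 and 345 in auxin, against 511 and 614 in DMSO, a change of -1.09 (SE 0.195, edgeR adjusted p = 3.18e-08) that was 0.62 with TMM scaling. In both genes auxin replicate 1 was well below auxin replicate 2, and both were below both DMSO libraries. AAC3, an ADP/ATP carrier expressed without oxygen, had 58.9 and 48.7 in auxin, against 131 and 130.5 in DMSO (-1.28, or 0.44 with TMM scaling), and YER053C, a copper and phosphate carrier, had 86.5 and 82.2 in auxin, against 218 and 297 in DMSO (-1.60, or 0.13 with TMM scaling). For pyruvate, the abundant MPC2 of fermenting cells had 1383 and 1406 in auxin, against 5286 and 5382 in DMSO (-1.94), MPC3 of respiring cells had 27.6 and 29.4 in auxin, against 105 and 168 in DMSO (-2.23), and their partner subunit YGL080W had 47.5 and 52.9 in auxin, against 228 and 273 in DMSO (-2.31).

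Protein import genes had a median of -1.84, close to that of all features, and 19 of 21 fell, with 7 lower and 4 higher under TMM scaling. TIM23 and TIM17 form the channel for proteins with a presequence. TIM23 had 284 and 348 normalized counts in auxin, against 1037 and 1124 in DMSO, a change of -1.77 (SE 0.194, edgeR adjusted p = 1.74e-19). TIM17 had 466 and 537 in auxin, against 1499.6 and 1629 in DMSO, a change of -1.64 that was 0.09 with TMM scaling. YDL217C, the channel of the TIM22 complex, which inserts carriers and other polytopic proteins, fell further, with 128 and 177 in auxin, against 858 and 907 in DMSO, a change of -2.52 (SE 0.204, edgeR adjusted p = 1.29e-33). TIM21, a nonessential part of the TIM23 complex that also contacts respiratory enzymes, had 190.1 and 204 in auxin, against 1214 and 1407 in DMSO, a change of -2.73 (SE 0.202, edgeR adjusted p = 2.07e-39), and ZIM17, a zinc finger cochaperone of the import motor, had 32.3 and 36.9 in auxin, against 218 and 242 in DMSO (-2.72). Besides YOR297C, the smallest fall among import genes above the limit for named genes was that of YJR135W-A, a small intermembrane space chaperone, with 155 and 163 in auxin, against 401 and 401 in DMSO (-1.33, or 0.39 with TMM scaling). SSC1, the motor Hsp70, is named for its uneven DMSO libraries, with 2435 and 3017 in auxin, against 8977 and 5447 in DMSO (-1.40, or 0.30 with TMM scaling).

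All 22 genes for membrane shape and protein quality control fell, with a median of -2.08, and with TMM scaling 12 were lower and 2 higher. AIM5, a component of the MICOS complex at crista junctions, had 59.9 and 46.2 normalized counts in auxin, against 438 and 489 in DMSO, a change of -3.13 (SE 0.232, edgeR adjusted p = 2.09e-39). YLH47, a homolog of human LETM1 in a feature that overlaps another, had 84.6 and 95.7 in auxin, against 629 and 655 in DMSO, a change of -2.83. The related MDM38 had 663 and 768 in auxin, against 1752 and 1868 in DMSO, a change of -1.34 (SE 0.190, edgeR adjusted p = 3.48e-12) that was 0.39 with TMM scaling. The prohibitin genes YGR132C and YGR231C, which encode a ring-shaped membrane chaperone, fell by 1.63 and 1.91 on the log2 scale, the first at 0.10 with TMM scaling. The m-AAA protease genes YTA12 and AFG3 fell by 1.79 and 1.58, the second at 0.14 with TMM scaling. HSP60 had the highest level per kb of all members, with 9173 and 10425 in auxin, against 21629.8 and 21909 in DMSO in normalized counts per kb, a change of -1.15 (SE 0.204, edgeR adjusted p = 2.27e-08) that was 0.57 with TMM scaling.

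Among the 37 members in no role group 36 fell, with a median of -2.03, and with TMM scaling 18 were lower and 4 higher. MSS1, which modifies mitochondrial transfer RNAs (YMR023C, chromosome XIII 319437 to 321017 in sacCer3), had the deepest fall of all 160 members, with 44.7 and 30.2 normalized counts in auxin, against 335 and 412 in DMSO, a change of -3.32 (SE 0.247, edgeR adjusted p = 3.79e-39). YGR110W, a cardiolipin phospholipase of low count named for its rank just behind, had 20.9 and 5.87 in auxin, against 109.7 and 140.1 in DMSO (-3.24), and its change was -4.37 without auxin replicate 1 and -2.56 without auxin replicate 2. YOL095C, a DNA helicase that maintains the mitochondrial genome, had 75.1 and 102 in auxin, against 617 and 701 in DMSO, a change of -2.89 (SE 0.215, edgeR adjusted p = 5.61e-39). At the other end stood YDL120W, the iron chaperone frataxin, with 219.6 and 278 in auxin, against 468 and 548 in DMSO (-1.03, or 0.70 with TMM scaling), and YOR176W, the ferrochelatase that puts iron into heme (chromosome XV 662401 to 663582 in sacCer3), with 1432 and 1666 in auxin, against 2445 and 2544 in DMSO, a change of -0.69 (SE 0.192, edgeR adjusted p = 4.00e-04) that was 1.04 with TMM scaling.

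The fold change was also read against each gene's level in DMSO. The median member had 593 normalized counts per kb of coding length in DMSO, beside 631 for the median feature. Across the 160 members, Spearman's rho between DMSO level and log2 fold change was 0.24, beside 0.40 across all features tested, and rho with coding length was 0.03; these are descriptions across genes, which share libraries, and both axes use the DMSO libraries. In 10 classes of equal size by DMSO level, 102 of the 160 members lay below the median of their class, and the median member differed from it by -0.23 on the log2 scale. The gap was widest among the most abundant genes. In the highest class the 9 members had a median of -1.37, beside -0.53 for all its features, and all 9 lay below that class median. That class runs from 4072 to 1.96e+06 normalized counts per kb, and the highest member stood at 21769. Its members are therefore not matched in level to all its features. YMR241W, YJR121W and COQ5, with shallow falls among all members, belong to this class and lay below its median too. In the class below, the 11 members had a median of -1.74, beside -1.33, and 9 lay below.

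**Figure D3:**
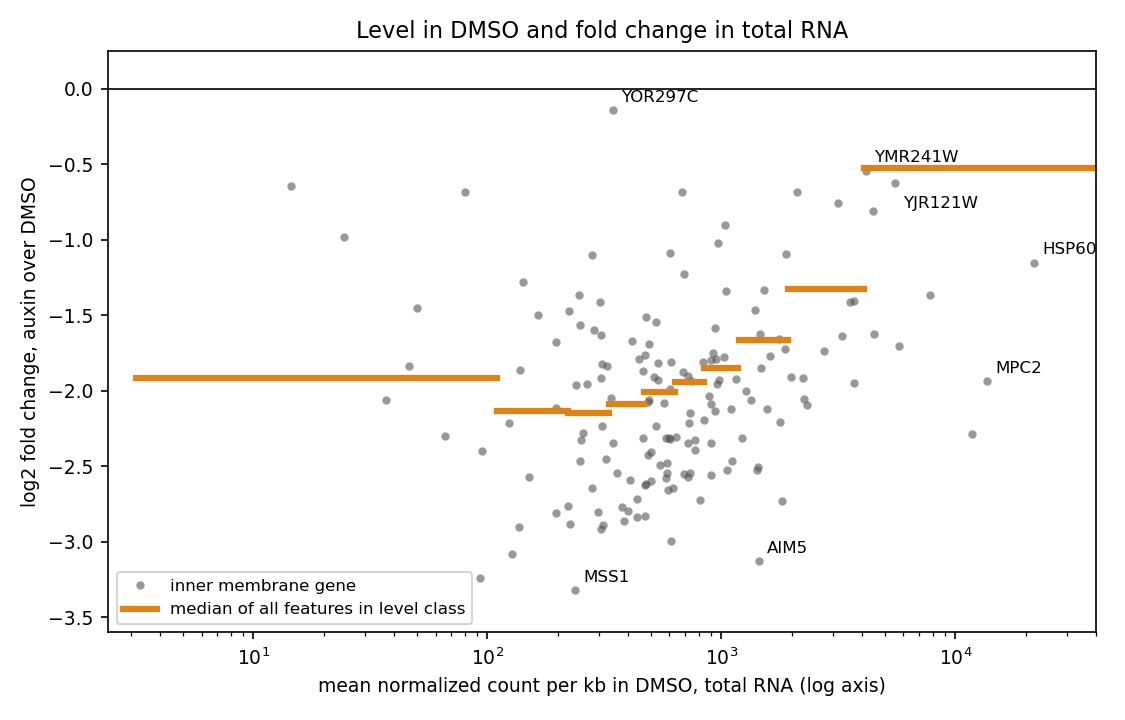
Mean normalized count per kb in DMSO total RNA (x axis, log scale) against log2 fold change of auxin over DMSO in total RNA with the authors' size factors (y axis). Grey points are the 160 tested members and orange bars the median of all features in each of 10 level classes, the last of which runs past the right edge; 102 members lie below their bar, all 9 of the highest class among them.

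Ratios of 2 related genes within 1 library do not depend on the scaling between libraries. They were taken on normalized counts per kb of coding length. No test was run on them, since 2 against 2 libraries cannot give an exact permutation p below 0.333. The gene order in each ratio puts the form called major or more abundant first where the descriptions say so. The ratio of PET9 to AAC1, the major and a minor ADP/ATP carrier, was 12.2 and 19.9 in auxin, against 5.93 and 4.15 in DMSO, a shift of 1.66 on the log2 scale (pooled SD 0.437, n = 2 each). The ratio of SDH4 to SHH4 was 6.50 and 4.81 in auxin, against 1.87 and 1.62 in DMSO, a shift of 1.68 on the log2 scale (pooled SD 0.240, n = 2 each). In both pairs the libraries of the 2 groups stood apart, and the minor form was the lower one after auxin.

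YMC1 and YMC2 are paralogs, and the order of their counts differed between treatments. The ratio of YMC1 to YMC2 was 1.29 and 1.49 in auxin, against 0.608 and 0.579 in DMSO, a shift of 1.22 on the log2 scale (pooled SD 0.113, n = 2 each), so that YMC2 had more counts than YMC1 in DMSO and fewer in auxin. YMC2 had 279 and 319.8 normalized counts in auxin, against 1044 and 1236 in DMSO, a change of -1.92 (SE 0.195, edgeR adjusted p = 1.80e-22). The channel genes of the TIM23 and TIM22 complexes also parted, with a ratio of TIM23 to YDL217C of 2.07 and 1.83 in auxin, against 1.13 and 1.16 in DMSO, a shift of 0.77 on the log2 scale (pooled SD 0.0875, n = 2 each). The ratio of ODC2 to ODC1, the 2-oxodicarboxylate carriers, was 3.45 and 3.22 in auxin, against 2.51 and 2.67 in DMSO, a smaller shift of 0.36 on the log2 scale (pooled SD 0.0682, n = 2 each).

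Ratios between partners of 1 complex were taken in the same way. The ratio of TIM23 to TIM17 was 0.435 and 0.462 in auxin, against 0.493 and 0.492 in DMSO, a shift of -0.13 on the log2 scale (pooled SD 0.0439, n = 2 each). The prohibitins YGR132C to YGR231C stood at 2.78 and 2.77 in auxin, against 2.11 and 2.46 in DMSO, and YTA12 to AFG3 at 0.877 and 0.867 in auxin, against 1.12 and 0.906 in DMSO. MPC2 to YGL080W stood at 29.3 and 26.8 in auxin, against 23.4 and 19.8 in DMSO, and MRS3 to MRS4, paralogs for iron transport, at 0.262 and 0.285 in auxin, against 0.374 and 0.294 in DMSO. The auxin and DMSO libraries overlapped for PET9 to AAC3, MIR1 to YER053C, MPC2 to MPC3 and YHR194W to YOR147W, which take part in mitochondrial shape, and so no shift beyond the spread was seen there.

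**Figure D4:**
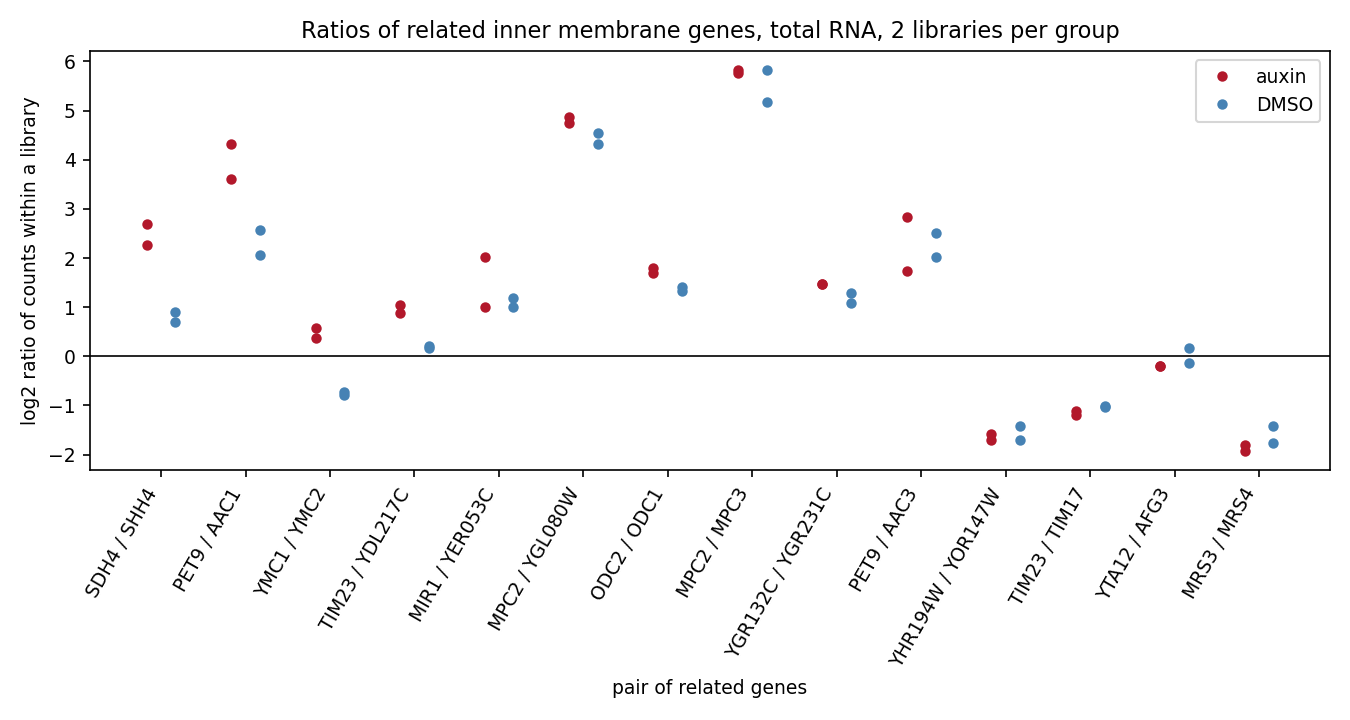
Log2 ratio of normalized counts per kb of 2 related inner membrane genes within each total RNA library (y axis), for 14 pairs of related genes ordered by the shift. Each point is 1 library, auxin in red left of DMSO in blue; the groups stand far apart for SDH4 to SHH4, PET9 to AAC1, YMC1 to YMC2 and TIM23 to YDL217C, with shifts of 1.68, 1.66, 1.22 and 0.77.

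Newly synthesized RNA of all 90 listed members was lower in auxin by edgeR, as was 100% of the listed features, with 0 members higher at an unadjusted p below 0.05 and 0 by DESeq2. The listed features are those with the lowest p-values of the authors' comparison, so the calls and the direction were settled by that selection and nothing is read from them; the other 72 members were not analysed in this fraction. Of the members 55.6% were listed, beside 43.3% of all 6518 features of the total RNA table. Only 5589 of those features had enough counts to be tested in total RNA, against 160 of the 162 members. Among tested features the share listed also varied with DMSO level, up to 73.9% in the highest level class. By role the share listed ran up to 76.5% for respiratory assembly, 13 of 17 members, and was 40.0% for complex IV, 2 of 5. These shares were not matched for level, so nothing particular to members or roles is read from them. The median of the 90 was -2.84, beside -2.80 over all listed features, and the median member stood at 13.1% and 15.4% of its DMSO mean in the auxin libraries. With TMM scaling the median was -0.04, with 25 lower and 19 higher, beside 25% and 21.2% of listed features.

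Changes of the 90 members in newly synthesized RNA ran from -3.87 to -2.29, a range that the selection by p-value bounds at its shallow end. MSS1 was again the deepest, with 97.5 and 107 normalized counts in auxin, against 1378 and 1621 in DMSO, and SSC1 the shallowest, with 4865 and 6055 in auxin, against 26725 and 26713 in DMSO (-2.29, or 0.49 with TMM scaling). Role medians were -3.0 for the 3 listed dehydrogenase and complex II genes and -2.98 for respiratory assembly, and ran to -2.62 for membrane shape and quality control and -2.59 for the 2 complex IV genes. CYT1, the 1 listed complex III gene, had 73.0 and 116 in auxin, against 855 and 1130.2 in DMSO, a change of -3.40 (SE 0.210, edgeR adjusted p = 7.47e-56). COX5A had 415 and 527 in auxin, against 2581 and 3194 in DMSO (-2.62, or 0.17 with TMM scaling), and COX11 had 231 and 283 in auxin, against 1856 and 2179.7 in DMSO (-2.97). YOR176W, the ferrochelatase, had 453 and 533 in auxin, against 4246 and 4732 in DMSO in newly synthesized RNA, a change of -3.19 (SE 0.262, edgeR adjusted p = 4.30e-33), against -0.69 in total RNA.

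The auxin effect was compared between fractions by the interaction of fraction and treatment over all 8 libraries. Among the 90 members 33 were called by edgeR, all with a smaller fall in total than in newly synthesized RNA, where 54.5% of the 2821 features in both tables were called that way. None (0) was called the other way, with 0 at an unadjusted p below 0.05 and 0.0% of all features; DESeq2 was not run on this model. Features in both tables had been selected for their low p-values in newly synthesized RNA, so the direction of the difference is tied to that selection, and nothing is read from the shared direction. The median difference, total minus newly synthesized, was 0.54 for members and 0.72 for all features. The count rests on single libraries and on the scaling. It was 19 without DMSO replicate 1 of total RNA, 20 without auxin replicate 2 of total RNA, 21 without DMSO replicate 2 of newly synthesized RNA, 51 without auxin replicate 2 of newly synthesized RNA, 56 with the culture number as a block, and 65 with TMM scaling, of which 57 had the larger fall in total RNA and 8 the smaller, beside 46.3% and 23.7% of all features.

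Of the 33 members, 17 were called in all 8 fits that left out 1 library, and 8 of these were also called with the same sign under TMM scaling. With TMM scaling alone 8 of the 90 members had that sign and call, beside 23.7% of all features. The share of all features called in every such fit is not given here, so nothing particular to members is read from these counts. By role the 33 held 8 of 22 carriers, 4 of 9 import genes, 3 of 5 coenzyme Q genes, 3 of 13 genes for membrane shape and quality control, 2 of 13 assembly genes and both complex IV genes listed. The 8 were the ferrochelatase YOR176W, the carriers YMR241W, YMC1, YLR348C and YLR188W, the oxidase subunit YGL191W, COQ5 and HSP60. YOR176W differed by 2.50 (SE 0.290, edgeR adjusted p = 1.37e-16) between fractions, or 1.43 with TMM scaling. YMR241W differed by 2.08 (SE 0.287, edgeR adjusted p = 3.60e-12), with 682 and 828 in auxin, against 4489 and 4840.1 in DMSO in newly synthesized RNA, where its change was -2.63, or 0.16 with TMM scaling. YMC1 differed by 2.07 (SE 0.273, edgeR adjusted p = 4.45e-13), with 159.8 and 183 in auxin, against 1125 and 1189.5 in DMSO in newly synthesized RNA (-2.76, or 0.03 with TMM scaling). The total RNA of these 3 genes stood at 62.1% to 68.7% of the DMSO level on the authors' scale.

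YGL191W differed by 1.80 (SE 0.281, edgeR adjusted p = 1.02e-09) and had 284 and 350.3 normalized counts in auxin, against 1784 and 1964 in DMSO in newly synthesized RNA (-2.56, or 0.23 with TMM scaling). COQ5 differed by 1.65 (SE 0.285, edgeR adjusted p = 3.59e-08), with 917 and 1093 in auxin, against 5307 and 5771 in DMSO (-2.46, or 0.33 with TMM scaling), and HSP60 by 1.32 (SE 0.259, edgeR adjusted p = 1.59e-06), with 17729 and 21397 in auxin, against 104935 and 111925 in DMSO (-2.47, or 0.32 with TMM scaling). The dicarboxylate carrier YLR348C, in a feature that overlaps another, and YLR188W, a peptide exporter of the ABC family, are outside the rule for named genes and are named because they are among the 8. They differed by 1.99 (SE 0.281, edgeR adjusted p = 1.20e-11) and 1.77 (SE 0.287, edgeR adjusted p = 4.36e-09). At the other end, COX11, MRS4 and SHH4 had close values in both fractions on the authors' scale, with differences of -0.02, -0.00223 and -0.07. On that scale 0 of the 2 listed ATP synthase factors were called. With TMM scaling the changes in total and newly synthesized RNA were -1.27 and -0.18 for COX11, -0.58 and 0.49 for MRS4, and -1.38 and -0.21 for SHH4. Both ATP synthase factors were then called, with the larger fall in total RNA.

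**Figure D5:**
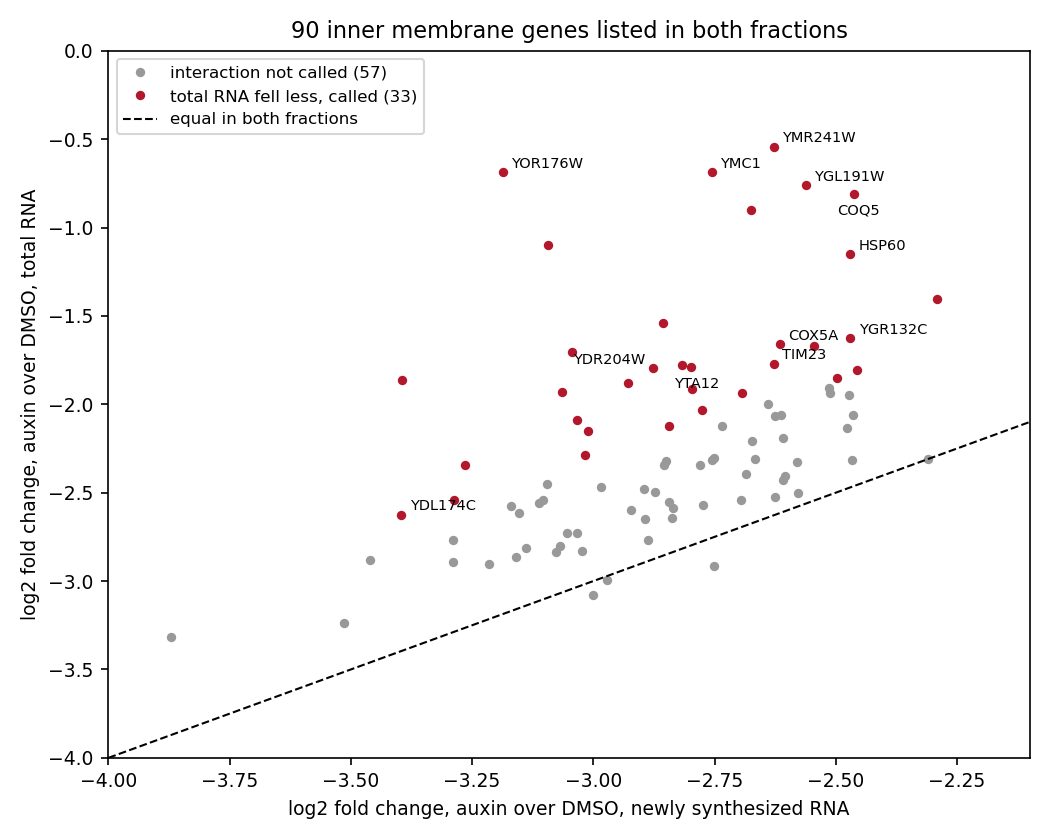
Log2 fold change of auxin over DMSO in newly synthesized RNA (x axis) and in total RNA (y axis), authors' size factors, for the 90 inner membrane genes listed in both tables. Red points are the 33 genes with a called interaction, grey points the 57 others, and the dashed line marks equal change; YOR176W lies farthest above the line, by 2.50, and with TMM scaling 57 genes had the larger fall in total RNA instead.

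The share of newly synthesized in total RNA varied widely between members in both treatments. The ratio of normalized counts, newly synthesized over total, was divided in each pair of libraries by its median over the 2821 features in both tables. The median of the 90 members in DMSO was 0.97, and members ran from 0.205 to 3.27, with 44 above 1. YLR348C was lowest, with 0.0820 and 0.0843 in auxin, against 0.195 and 0.214 in DMSO, and YMR241W stood at 0.114 and 0.118 in auxin, against 0.325 and 0.288 in DMSO. COQ5 stood at 0.178 and 0.176 in auxin, against 0.342 and 0.347 in DMSO, YGL191W at 0.198 and 0.170 in auxin, against 0.410 and 0.377 in DMSO, YOR176W at 0.135 and 0.129 in auxin, against 0.451 and 0.471 in DMSO and YMC1 at 0.203 and 0.166 in auxin, against 0.493 and 0.452 in DMSO. Each of these 6 genes was below the median feature in all libraries. All 6 had a called interaction, which their lower ratio in auxin restates. Low members without such a call did not all share it, since MPC2 stood at 0.477 and 0.517 in auxin, against 0.436 and 0.480 in DMSO. SHH4 and YIA6, a nicotinamide dinucleotide carrier named as the highest, stood above, at 5.65 and 3.25 in auxin, against 2.41 and 2.34 in DMSO for SHH4 and 5.96 and 2.85 in auxin, against 3.50 and 3.05 in DMSO for YIA6. The ratios share libraries with the fold changes and are given as a description.

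Other mitochondrial genes that are no members gave the setting. Of 11 listed matrix enzymes of the tricarboxylic acid cycle, 4 were matched by name, and all 4 fell, with a median of -0.86, of which 3 were higher with TMM scaling. All 11 genes of outer membrane import fell, with a median of -1.52, of which 1 was lower and 3 were higher with TMM scaling. HAP1, the heme-responsive activator of respiratory genes, was the 1 matched regulator and fell, with 324 and 363 in auxin, against 2166 and 1350.2 in DMSO (-2.36). The mitochondrial-encoded partners of complexes III, IV and ATP synthase were measured in the same libraries. Of 7 genes 0 were called lower by edgeR and 1 higher, ATP6, with 2744 and 3939 in auxin, against 2269.6 and 2542 in DMSO (0.47, edgeR adjusted p = 0.0157), and their median was 0.36. With TMM scaling all 7 were called higher.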

How the data were processed

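RNA-seq was analysed from 8 libraries in 4 groups, total and newly synthesized RNA in auxin and DMSO. A strand-specific kit with removal of ribosomal RNA was used, per the labels' protocols. The submitters' processing notes name sacCer3 and bcl2fastq 2.17.1.14. For the aligner, the counter, strand in counting and the origin of the size factors, the sources used here gave nothing. The authors deposited 1 table per fraction with raw counts per feature, a normalized signal (the count divided by 1 size factor per library, as the values show) and the same signal per kb of length, per the file headers. The size factors were 1.05 and 1.19 for total RNA in auxin, 1.09 and 0.728 for total RNA in DMSO, 1.59 and 1.56 for newly synthesized RNA in auxin, and 0.613 and 0.657 for newly synthesized RNA in DMSO. The authors' deposited p-values, without a named test, served only to find what the newly synthesized RNA table holds. It breaks off in its last line and holds 42.1% of 6707 ranked features, those with the lowest p-values.

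Raw counts were tested for features whose mean was 10 or more, with the authors' factors as the scaling, by edgeR 4.0.16 (quasi-likelihood F test, R 4.3.3), once per fraction, and for the interaction over features tested in both fractions. P-values were Benjamini-Hochberg adjusted over all features tested. The fit was tested on simulated data. Alternatives were TMM scaling, DESeq2 1.42.0, no filter, a minimum of 50 counts, the replicate number as a block, and each library left out. With 2 libraries per group a single exact permutation test cannot go below p = 0.333. Intervals and errors cover the spread between these libraries only. Same-numbered libraries of auxin and DMSO were not paired in the main fit, since the labels state no shared culture between treatments and there are only 2 pairs. Whether they share a culture is not known.

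Members and gene lists were chosen with earlier results of these data known. Named genes were, among members with a mean of at least 100 raw counts in total RNA, the 2 highest and the 2 lowest log2 fold changes of each role group, any member called higher, and all members of listed pairs of related genes, 59 genes in all. Genes named beyond this rule (QCR9, CYT1, YGR110W, YOR100C, YAR035W, YEL059C-A, SSC1, YLR348C, YLR188W, YIA6, SFC1, YDR119W-A) were chosen after their values were seen. Role groups followed fixed name lists for 47 members and the deposited descriptions for 78, and 37 fitted none. Of the members 12 overlap another feature and 19 have a paralog in their description, so their counts may hold reads of the other gene. Lengths are coding lengths, since 99.9% of protein-coding ones are multiples of 3. Promoter sequences and motifs were not analysed here.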

Additional observations from a re-analysis of the deposited data

Results flagged for a closer look

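Of 32 named inner membrane genes tested in both fractions, 12 had an auxin effect that differed between total and newly synthesized RNA by the edgeR interaction test over all 8 libraries. The same call was made for 54.5% of all features in both tables, so nothing particular to these genes is read from the count. The listed features had been selected for low p-values in newly synthesized RNA, so the shared direction, a smaller fall in total RNA on the authors' scale, is tied to that selection. The values here are log2 fold changes in total minus those in newly synthesized RNA.

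For 6 genes the call held in all 8 fits that left out 1 library and also with TMM scaling. With TMM scaling 23.7% of all features in both tables were called with that sign. The differences were 2.50 for YOR176W, 2.08 for YMR241W, 2.07 for YMC1, 1.80 for YGL191W, 1.65 for COQ5 and 1.32 for HSP60. They are the ferrochelatase, the citrate and oxoglutarate carrier, a glycine carrier, subunit VIa of cytochrome c oxidase, a coenzyme Q methyltransferase and the chaperonin.

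For 2 genes the call held in all 8 fits but not with TMM scaling, where the differences were -0.0012 and -0.05. They were 1.08 for YDR204W and 1.01 for YTA12, a factor of coenzyme Q synthesis and a subunit of the m-AAA protease.

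For the last 4 genes the call was lost without DMSO replicate 1 of total RNA, without auxin replicate 2 of total RNA or without DMSO replicate 2 of newly synthesized RNA, and for YDL174C also without DMSO replicate 2 of total RNA. They were 0.96 for COX5A, 0.86 for TIM23, 0.84 for YGR132C and 0.77 for YDL174C. With TMM scaling their differences were -0.11, -0.21, -0.23 and -0.31, none of them called. What these differences come from was not tested.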

How the results depend on the processing

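The directions above rest on the authors' size factors. With TMM scaling 76 members were lower and 22 higher in total RNA, with a median of -0.33, and 25 were lower in newly synthesized RNA, with a median of -0.043, and 65 had a called interaction. The complex IV median in total RNA turned to 0.19. In total RNA 23 named genes turned to a positive log2 fold change: PET9 0.47, AAC3 0.44, YDL120W 0.70, SDH4 0.24, AFG3 0.14, YER053C 0.13, YGL191W 0.96, YGR132C 0.10, YHR051W 0.31, YIL155C 0.35, TIM17 0.085, MIR1 0.62, YJR121W 1.09, YJR135W-A 0.39, HSP60 0.57, COQ5 0.92, YMR241W 1.19, COX5A 0.067, MDM38 0.39, YOR176W 1.04, ODC2 0.26, YOR297C 1.57 and YMC1 1.03. In newly synthesized RNA 15 did: YER141W 0.32, YGL191W 0.23, YGR132C 0.32, YGR231C 0.28, MPC2 0.28, MRS4 0.49, HSP60 0.32, YLR393W 0.038, COQ5 0.33, YMR241W 0.16, COX5A 0.17, TIM23 0.16, YNR041C 0.11, YOL096C 0.19 and YMC1 0.034. TMM by its construction centres the median of all features near 0. Leaving out 1 library gave medians of -2.23 to -1.89 in total RNA, 19 to 51 called interactions (20 without auxin replicate 2 of total RNA and 21 without DMSO replicate 2 of newly synthesized RNA), and -0.32 to 0.0095 for YOR297C, positive without auxin replicate 1. DESeq2, no filter on low counts and a minimum of 50 counts changed no call of the 59 genes of the rule for named genes where they tested them, while YOR100C, outside that rule, lost its call with DESeq2. A wider reading of the exclusion left 152 members and moved no count by over 1.5 times; it was applied to these counts after seeing the data. The motif comparison of promoters was not run.

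With the replicate number as a block, 56 members had a called interaction. That block joins the 2 fractions of the same treatment and replicate number, and the cause of the higher count was not tested. Same-numbered auxin and DMSO libraries deviated with a correlation of -0.117 in total RNA and 0.0517 in newly synthesized RNA. This cannot show whether they share a culture. The 2 fractions of 1 replicate number also correlated at only 0.0967 in auxin and 0.163 in DMSO. The block changed no call of the 59 genes of the rule for named genes in either fraction, while YOR100C lost its call. A block with the numbers crossed, added after seeing the data, lost the calls of YJR121W and YMR241W in total RNA. With 2 libraries per group, their number limits the precision, and members under 10 mean counts were not tested.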
